A study of Mus musculus with 6 samples.

Results

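Small nucleolar RNAs (snoRNAs) were followed as a gene group in mouse brain: 73 genes, of 22180 genes represented on the array by a probeset with a single symbol. They were taken by symbol, 26 starting with Snora, the H/ACA class, and 47 starting with Snord, the C/D class, each followed by a digit. The array held 118 probesets naming a snoRNA of this kind, of which 75 named 1 gene and 43 named several. For Snora19 and Snora33, which had 2 probesets each, the probeset was chosen by the higher mean level over all 6 arrays, and no other measured value entered the choice. The group itself was picked with results of these arrays known. Snord116 was present only on 16 probesets with several symbols, at most 3 each, and is not described, and 0 of 11 listed snoRNAs of imprinted clusters had a probeset of their own.

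Total brain RNA of 3 control and 3 knockout samples was hybridised to the Affymetrix array Mouse Gene 2.0 ST. The knockout, Thy1Cre-ERT2-EYFPHuRf/f, carries 2 floxed alleles of the gene for HuR (Elavl1), an RNA-binding protein, and the control, Thy1Cre-ERT2-EYFPHuRf/+, carries 1. Both groups carry the tamoxifen-inducible Cre with its yellow fluorescent reporter, both were given tamoxifen at 10 and 11 weeks of age, and both were 91 days old. Cre is driven by the neuronal Thy1 promoter while the whole brain was sampled, so cells without Cre contribute RNA in both groups. The labels state mice of either sex without giving the sex of a sample, and they name no individual animals, so each p-value reflects only how far these samples spread.

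SnoRNAs guide chemical modification of other RNAs, mainly ribosomal RNA, in the nucleolus. C/D RNAs direct methylation of the ribose and H/ACA RNAs direct conversion of uridine to pseudouridine, each by base pairing with the target, and a few are needed for cleavage of the ribosomal RNA precursor instead. Most vertebrate snoRNAs lie in introns of host genes and are trimmed from the excised intron, so that their amount depends on the transcription and splicing of the host and on the proteins that bind and protect them.

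The RefSeq annotation of mouse assembly GRCm38.p6 held all 73 genes. H/ACA members were 56 to 205 bases long with a median of 118.5, and C/D members were 48 to 221 bases long with a median of 68. Of these members, 70 lay inside the span of another gene, and Snord13, Snord118 and Snord89 lay in none. The enclosing genes numbered 56, with 42 protein-coding genes, 16 of them for ribosomal proteins, and 14 long noncoding RNA genes. Snhg12, a host with little coding capacity, enclosed 4 members (Snora61, Snora44, Snora16a and Snord99), and 2410006H16Rik enclosed 3 (Snord49a, Snord49b and Snord65). In all, 25 members shared 11 hosts, and pairs such as Snora73a and Snora73b, Snord73a and Snord73b or Snord49a and Snord49b are close copies whose probes could take up each other's RNA, so members are not independent.

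The promoters of the 2 hosts with the most members are shown for the run of pyrimidines at their annotated start. Each window runs from 250 bases before to 50 bases after the annotated start, as given by RefSeq on the + strand of GRCm38.p6, and the capitals mark the unbroken run of C and T that holds the start base, 9 bases in both. Snhg12 is at chr4:132308428-132308727 and 2410006H16Rik is at chr11:62602627-62602926.
Snhg12: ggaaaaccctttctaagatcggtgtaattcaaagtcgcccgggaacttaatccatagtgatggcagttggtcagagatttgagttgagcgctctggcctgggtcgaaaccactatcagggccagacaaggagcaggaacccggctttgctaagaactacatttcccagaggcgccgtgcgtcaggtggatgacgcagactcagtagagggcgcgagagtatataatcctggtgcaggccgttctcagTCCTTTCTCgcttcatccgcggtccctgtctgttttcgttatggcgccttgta
2410006H16Rik: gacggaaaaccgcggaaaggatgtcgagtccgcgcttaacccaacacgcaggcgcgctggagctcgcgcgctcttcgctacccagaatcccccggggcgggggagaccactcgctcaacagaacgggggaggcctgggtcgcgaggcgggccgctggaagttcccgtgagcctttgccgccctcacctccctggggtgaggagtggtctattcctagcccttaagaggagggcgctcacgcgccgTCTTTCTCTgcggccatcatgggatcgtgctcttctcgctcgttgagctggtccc
A run of at least 5 C or T on the coding strand holding the start base was present in 10 of the 44 hosts with a window (22.7%) and in 3191 of 27025 genes (11.8%). This is a description of letters at annotated starts.

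Snora34 and Snora19 also overlap annotated microRNA hairpins, and the shared bases are shown because a probe on either product may take up the other. Capitals mark the bases that lie inside the snoRNA gene. The hairpin of Mir1291 is at chr15:98519762-98519878 on the - strand, and 73 of its 117 bases lie in Snora34. The hairpin of Mir3084-2 is at chr19:60774329-60774397 on the - strand, and 56 of its 69 bases lie in Snora19, which is the whole of that gene.
Mir1291: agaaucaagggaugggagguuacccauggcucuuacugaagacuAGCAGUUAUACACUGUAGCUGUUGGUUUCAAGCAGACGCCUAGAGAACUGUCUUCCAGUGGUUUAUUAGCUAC
Mir3084-2: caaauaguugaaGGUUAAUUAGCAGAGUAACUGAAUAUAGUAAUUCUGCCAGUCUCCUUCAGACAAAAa
In the mature products the seed, bases 2 to 8, is in capitals instead. miR-3084-3p lies wholly within Snora19 with 21 shared bases, miR-3084-5p shares 16 bases with it, and miR-1291 shares 7 bases with Snora34.
mmu-miR-3084-3p: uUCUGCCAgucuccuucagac
mmu-miR-3084-5p: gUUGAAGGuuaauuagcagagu
mmu-miR-1291: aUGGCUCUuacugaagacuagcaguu

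Levels are given as log2 of the deposited intensity plus 1 after quantile normalization, and 16635 genes at or above a mean level of 3.28, the 25th percentile, were tested. All 73 members passed this filter. Snora19 and Snord85 were the dimmest members above it, with means of 3.70 and 3.79, and 0 members lay below it. The brightness of a probeset depends on its probes, so levels are compared between arrays and never between members. The number of arrays, 3 in each group, limits the precision for every gene. A member's log2 fold change had a 95% confidence interval that reached 0.895 to either side in the median. Over all tested genes, on the same arrays, it reached 0.328. Without both arrays numbered 3, described below, the members' interval reached 0.327.

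Elavl1 stood at 8.27, 8.01 and 8.53 in the controls and at 8.22, 8.17 and 8.27 in the knockouts, a log2 fold change of -0.05 ± 0.15 (SE, 3 arrays per group). The groups overlapped, so this probeset does not separate the labels in whole brain. Of 14 brain markers 13 were tested, at levels from 3.55 for Cldn5, an endothelial tight junction gene, to 12.40, and 0 passed the threshold by limma with Benjamini-Hochberg adjustment, with 0 at an unadjusted p under 0.05. Prl, a pituitary hormone gene, stood at 5.84 in knockout 3 and at 3.14 to 3.77 in the other arrays. Gh, the other pituitary gene tested, was highest in control 2 at 6.08. It stood at 5.18 in knockout 3 and at 4.29 to 4.86 in the remaining arrays. Xist, the RNA of the inactive X chromosome, stood at 7.69 in control 3 and 7.68 in knockout 3 and at 2.52 to 2.79 elsewhere. In bulk RNA, fewer cells of a type and less RNA per cell cannot be told apart.

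The largest differences among snoRNA levels lay between arrays of the same genotype. In both groups the array numbered 3 was low for nearly the whole group of genes. The median level of the H/ACA members was 8.92, 8.83 and 7.74 in controls 1, 2 and 3 and 8.77, 8.70 and 7.50 in knockouts 1, 2 and 3. The median of the C/D members was 9.29, 9.22 and 8.21 in the controls and 9.25, 9.22 and 8.04 in the knockouts. Arrays 1 and 2 lay together and array 3 lay about 1 log2 unit below them in each group, while the median of all tested genes, which quantile normalization holds in place, stayed between 5.82 and 5.88. In the values as deposited, array medians over all probesets differed by at most 0.12 log2 units. The pooled SD of the class medians within groups was 0.684 for H/ACA and 0.648 for C/D (n = 3 per group).

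**Figure D1:**
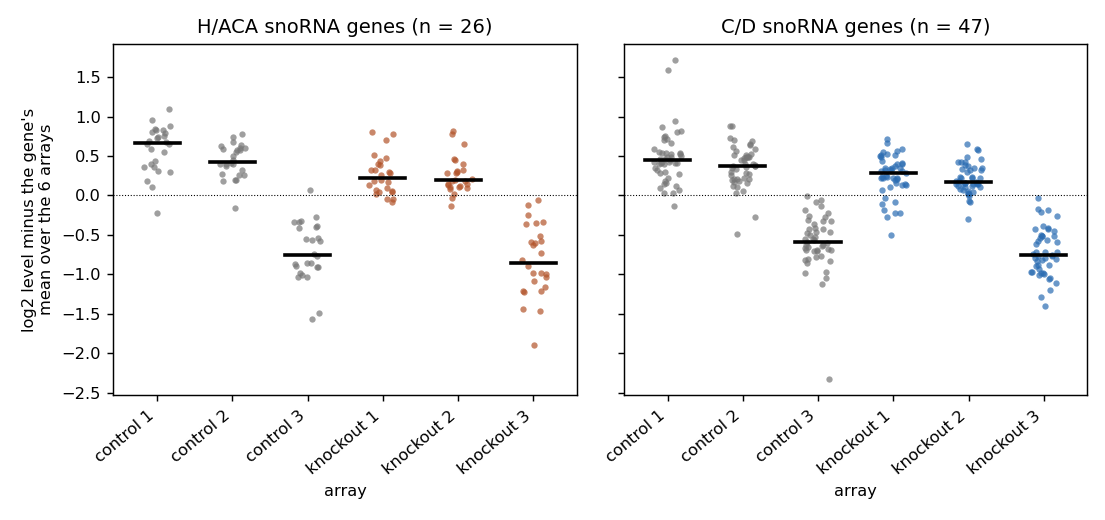
Each point is a snoRNA gene, plotted by array as its log2 level minus its own mean over the 6 arrays, with 26 H/ACA and 47 C/D members in separate panels and a black bar at the median. In both groups nearly all points of array 3 lie below 0, with medians well under those of arrays 1 and 2.

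The array numbered 3 was then set against the mean of arrays 1 and 2 of its own group. For H/ACA members the median log2 difference was -1.19 in the controls and -0.99 in the knockouts, or 0.439 and 0.503 times the level of the other arrays. For C/D members it was -1.02 and -0.97, or 0.493 and 0.510 times. Over all tested genes it was 0.02 and 0.00. The difference was below 0 in both groups for 25 of 26 H/ACA and 45 of 47 C/D members, 95.9% of all members against 35.3% of tested genes. Array 3 was the lowest array of its group in both groups for 68 of 73 members (93.2%), 25 H/ACA and 43 C/D, against 24.3% of tested genes, and 27.1% of tested genes had it highest in both. This contrast has no replicates within a group and was chosen after the arrays had been seen, so it is a description without a test. Xist moves with it, and so do markers of cell types. Of the 13 brain markers, 5 were lower in array 3 of both groups, and the list ran from -0.89 to 1.13 in the controls and from -0.63 to 1.78 in the knockouts. The differences in controls and knockouts were 0.89 and 0.84 for Snap25, a synaptic gene of neurons, 1.13 and 1.78 for the endothelial Cldn5, -0.89 and -0.63 for P2ry12 of microglia and -1.31 and -0.75 for Dcn of the meninges. The other meningeal markers had -0.53 and -0.93 (Col1a1) and 0.01 and -0.18 (Col3a1). Summed over each list on the linear scale, brain markers ranged from 8670 to 12516 in the controls and from 9009 to 12651 in the knockouts, and the 3 meningeal markers from 240 to 549 and from 281 to 495. Their part in the result was not tested.

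**Figure D2:**
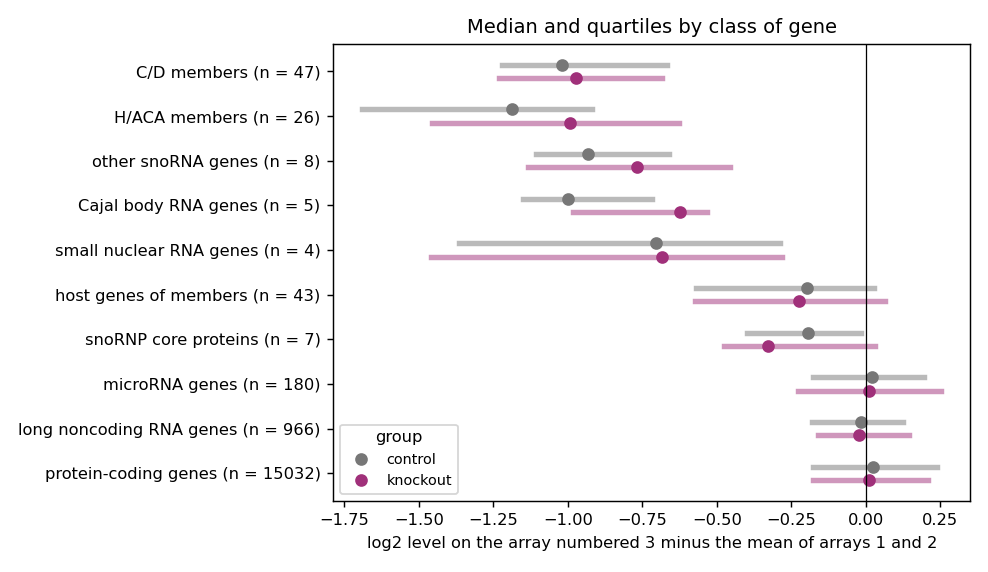
Log2 level on array 3 minus the mean of arrays 1 and 2 of the same group, by class of gene, with a point at the median and a bar from the lower to the upper quartile, grey for controls and purple for knockouts. The H/ACA and C/D medians lie between -1.19 and -0.97, while the medians of 15032 protein-coding genes (0.02 and 0.01) and 180 microRNA genes (0.02 and 0.01) lie close to 0. The microRNA genes are dim, with a median mean level of 4.12 against 8.80 for the members, so a drop in them could be understated.

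The RNAs listed here for processing of the ribosomal RNA precursor had gaps from wide to narrow. Snord13, the U13 RNA, which pairs with the 3′ end of the small subunit RNA precursor, stood at 11.34, 10.51 and 7.30 in the controls and at 10.29, 10.09 and 8.23 in the knockouts. Both arrays numbered 3 were far below the rest, by -3.63 in the controls and -1.96 in the knockouts. Snora73b, a U17 RNA, stood at 11.00, 10.69 and 8.55 in the controls and at 10.89, 10.90 and 8.68 in the knockouts, and its copy Snora73a at 10.73, 10.50 and 8.41 and at 10.60, 10.72 and 8.44. For this pair the gap of array 3 was -2.29 and -2.21 (Snora73b) and -2.21 and -2.22 (Snora73a), the same in both genotypes to within 0.1. Snord118, the U8 RNA needed for the large subunit RNAs, had gaps of -1.17 and -0.83, and Snord22, the U22 RNA in Snhg1, had gaps of -0.55 and -0.56. Of 11 listed RNAs of this kind 5 were measured, and array 3 was the lowest of its group in both groups for these 5.

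Among the other members, Snora31 in the host Tpt1 stood at 8.85, 8.94 and 7.13 in the controls and at 8.97, 8.82 and 6.27 in the knockouts, a gap of -1.76 and -2.63. Snora35, an RNA in an intron of the serotonin receptor gene Htr2c, stood at 8.23, 8.37 and 6.60 and at 8.10, 8.09 and 6.40, with gaps of -1.70 and -1.69. At the other end, Snora78 in Snhg9 stood at 3.80, 4.21 and 4.10 in the controls and at 3.98, 4.15 and 3.91 in the knockouts. Its gap was 0.10 and -0.16, and array 3 was not the lowest control. Snord88c (gaps of -0.17 and 0.10) and Snord55 (-0.44 and 0.08) were the other members without a drop in both groups. A gap of -1 or lower in both groups was found for 31 members, against 0.397% of tested genes. Over the 73 members the gap in the controls and the gap in the knockouts had a Spearman rho of 0.78, and over all tested genes 0.67. The rho between a member's length and its gap was -0.25 in the controls and -0.13 in the knockouts, a weak relation, and members that share a host or sequence are not separate points.

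A gap in array 3 was also measured, though unevenly, in other small RNAs and in some hosts. All 8 further genes annotated as snoRNA under other names were lower in array 3 of both groups, with medians of -0.93 and -0.77. The 5 guide RNAs of the Cajal body, which modify spliceosomal RNA, were likewise lower in both groups, with medians of -1.001 and -0.62. The gap was narrow for some of these genes, with -0.02 and -0.01 for Gm26504 and -0.14 and -0.11 for Scarna2. Rnu3a, a U3 RNA gene, stood at 7.66, 7.12 and 5.04 in the controls and at 7.38, 7.37 and 4.55 in the knockouts. The 43 tested hosts had median gaps of -0.20 and -0.23, with the widest in 2410006H16Rik (-1.49 and -1.31), and 62.8% of them were lower in array 3 of both groups against 35.3% of tested genes. The snoRNA was lower than its own host in this measure for 48 of 57 members in the controls and 50 of 57 in the knockouts. Some of these hosts, such as Rpl39, Snhg18 and Rpl17, were dim, and their gaps may be understated.

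The question of the design was whether RNA levels differ between the brains of the knockout and the control. No snoRNA gene passed the adjusted threshold: 0 of 26 H/ACA and 0 of 47 C/D members had an adjusted p under 0.05 by limma with Benjamini-Hochberg adjustment, where 0% of all tested genes did (lowest adjusted p 1.00). At an unadjusted p under 0.05, 0 H/ACA members and 1 C/D member were lower, against 0.763% of tested genes lower, and 0 members were higher, against 0.932% (1.7% in either direction). The median log2 fold change, knockout minus control, was -0.21 for H/ACA, with the middle members between -0.30 and -0.07, and -0.16 for C/D, between -0.34 and -0.07. It was 0.01 over all tested genes. The difference was below 0 for 22 of 26 H/ACA (84.6%) and 39 of 47 C/D members (83.0%), against 45.2% of tested genes. These shifts are smaller than the spread of the class medians within groups given above, which array 3 dominates.

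These medians depended on single arrays. Without knockout 3, the H/ACA and C/D medians were 0.12 and 0.15, with 6 and 13 members below 0, and without control 3 they were -0.68 and -0.51, with 25 and 46 below 0. Without control 1 they were 0.02 and 0.03, and without control 2 they were -0.04 and -0.01. Without knockout 1 they were -0.38 and -0.32, and without knockout 2 they were -0.38 and -0.31. In each of these comparisons the arrays numbered 3 weigh unequally in the groups.

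**Figure D3:**
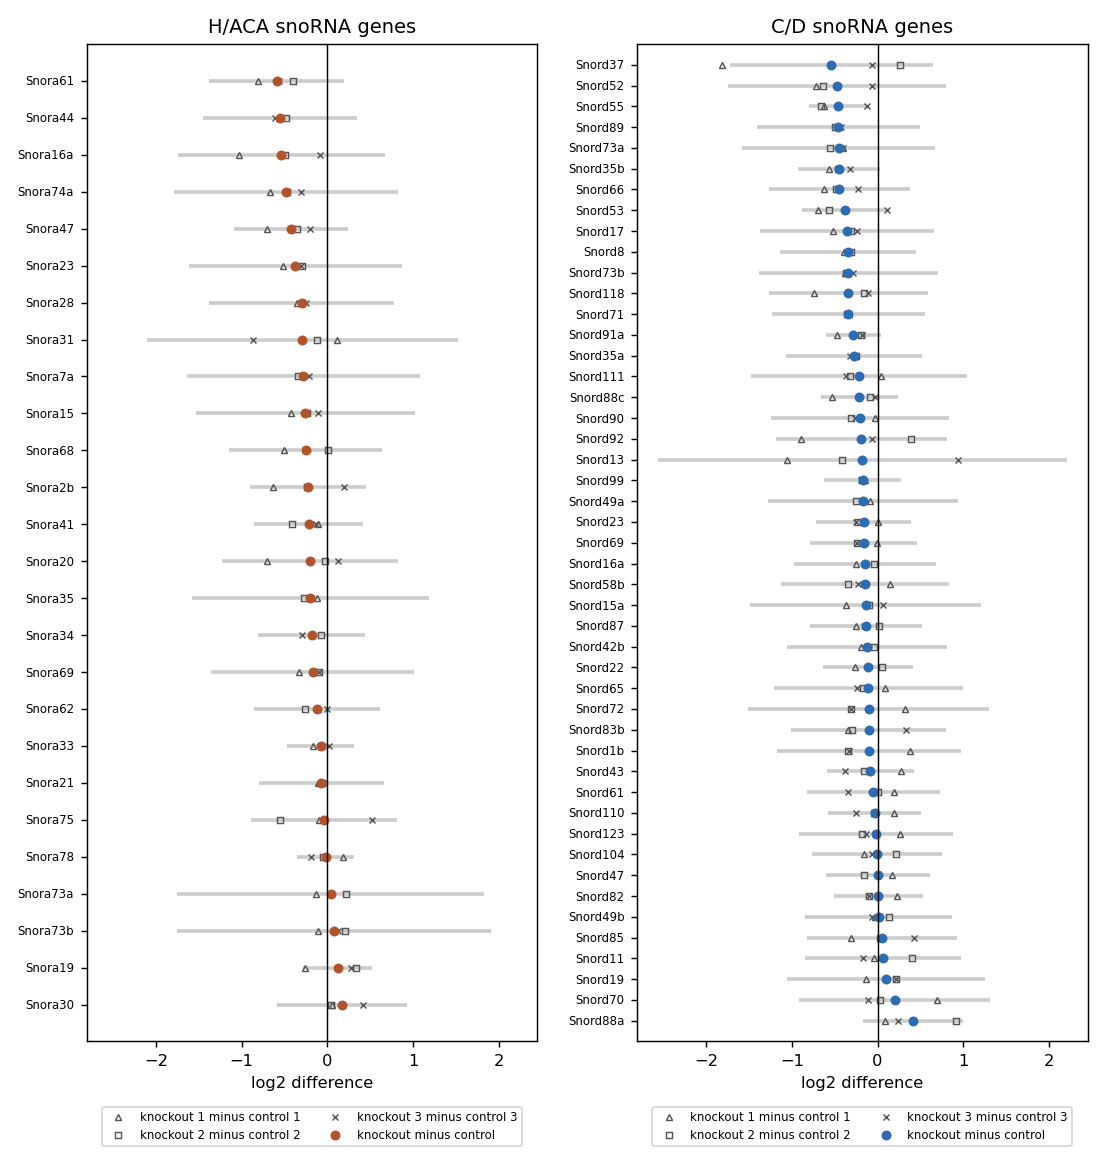
Log2 difference, knockout minus control, for each of 26 H/ACA and 47 C/D members (filled points, with the 95% confidence interval of the limma fit as a grey bar) and the difference of each same-numbered pair of arrays (open symbols and crosses). The points of 61 of 73 members lie below 0, and the interval of Snord55 alone excludes 0.

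The groups stay balanced for array 3 in same-numbered differences, with the replicate number as a block, and without both arrays numbered 3. Among same-numbered arrays, 56 of 73 members were lower in the knockout in pair 1, 56 in pair 2 and 56 in pair 3, against 47.8%, 46.6% and 48.5% of tested genes. The H/ACA medians of the pairs were -0.27, -0.23 and -0.12, and the C/D medians were -0.25, -0.19 and -0.17. A lower value in all 3 pairs was found for 34 members, 14 H/ACA and 20 C/D, against 10.7% of tested genes, and a higher value in all 3 for 2 members, against 14.2%. Members vary together across arrays, so these counts do not stand for as many separate observations.

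With the replicate number as a block, 9 H/ACA and 12 C/D members were lower and 1 C/D member was higher at an unadjusted p under 0.05, against 2.03% lower, 2.81% higher and 4.85% in either direction among tested genes. The members' intervals reached 0.255 to either side in the median in that fit, and 0 members passed after Benjamini-Hochberg adjustment by limma, with a lowest adjusted p of 0.984. Without both arrays numbered 3, 7 H/ACA and 13 C/D members were lower and 0 were higher, against 2.1% and 3.04% (5.13% in either direction), and again 0 passed by limma after adjustment (lowest adjusted p 0.931). The medians were then -0.26 for H/ACA, with 21 of 26 below 0, and -0.15 for C/D, with 33 of 47 below 0, where 46% of tested genes were below 0. In arrays 1 and 2, the knockouts lay wholly below the controls for 36 members, against 15% of tested genes, and wholly above for 2, against 19.7%. An unadjusted p under 0.05 was found both with the block and without arrays 3 for 18 members, against 2.18% of tested genes. The arrays bear out the pairing for number 3 alone, as the correlations of deviations given with the processing show.

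Snord55, a C/D RNA, was the member whose groups did not overlap. It stood at 11.01, 10.98 and 10.55 in the controls and at 10.39, 10.32 and 10.44 in the knockouts. Every knockout lay below every control, the only such member, against 2.55% of tested genes, and 0 members had the reverse, against 3.14%. The mean was 10.85 ± 0.26 (SD, n = 3) in the controls and 10.38 ± 0.06 (SD, n = 3) in the knockouts, a log2 fold change of -0.47 ± 0.14 (SE), or 0.724 times. The limma p was 0.0134 unadjusted and 1.00 after Benjamini-Hochberg adjustment, and without both arrays numbered 3 the log2 fold change was -0.64.

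Among other C/D members with small p, Snord35b stood at 7.93, 7.86 and 7.28 in the controls and at 7.36, 7.40 and 6.96 in the knockouts. Its groups overlapped through array 3 of the controls, and its log2 fold change was -0.45 ± 0.21 (SE; limma unadjusted p 0.0619). Snord66, in the translation initiation factor gene Eif4g1, stood at 8.24, 8.35 and 7.17 and at 7.61, 7.87 and 6.95, a log2 fold change of -0.45. In both RNAs each knockout array was below the control array of its own number. Snord53 in Wdr43 (-0.38) and Snord91a in Tsr1 (-0.28) complete the 5 C/D members with the smallest p in the lower direction.

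The higher C/D members were led by Snord88a, at 4.48, 3.70 and 3.77 in the controls and 4.57, 4.61 and 4.01 in the knockouts. Its groups overlapped through control 1, and its log2 fold change was 0.41 ± 0.25 (SE; limma unadjusted p 0.138). Snord70 in Nop58 had a log2 fold change of 0.20, Snord19 in Gnl3 of 0.10, Snord11 in Nop58 of 0.07 and Snord85 of 0.05. Snord88c, in the same host as Snord88a, had a log2 fold change of -0.21, so these close relatives differed in sign.

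Of the brightest C/D members, Snord99 had a log2 fold change of -0.17, Snord87 of -0.13, Snord22 of -0.11, Snord110 of -0.03, Snord104 of -0.00 and Snord49b of 0.01. Each of these lay within 1 SE of 0, an SE that includes the gap of array 3. Of the brightest H/ACA members, Snora34 had -0.18 and Snora33 and Snora21 had -0.07 each, within 1 SE of 0 (Snora16a and Snora73b are given with their hosts). Snora23 had -0.37 ± 0.53 (SE), and with the replicate block its unadjusted p was 0.00687 by limma (adjusted p 0.984). The RNAs listed for precursor processing had log2 fold changes of -0.34 (Snord118), -0.18 (Snord13), -0.11 (Snord22), 0.04 (Snora73a) and 0.08 (Snora73b). The interval for Snord13 ran from -2.57 to 2.21.

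Of the 5 H/ACA members with the smallest p in the lower direction, 3 lay in Snhg12. Snora61 stood at 8.65, 8.42 and 7.58 in the controls and at 7.84, 8.02 and 7.02 in the knockouts, a log2 fold change of -0.59 ± 0.34 (SE). Snora44 stood at 10.09, 10.02 and 9.01 and at 9.53, 9.53 and 8.40, a log2 fold change of -0.55 ± 0.39 (SE). Snora16a stood at 12.43, 11.93 and 10.43 and at 11.40, 11.44 and 10.34, a log2 fold change of -0.53 ± 0.52 (SE). All 3 overlapped between the groups through array 3, and all 3 were lower in each knockout than in the control of the same number. Leaving out 1 array gave -0.907 to -0.289 for Snora61, -0.898 to -0.175 for Snora44 and -1.12 to -0.119 for Snora16a. With the replicate block their unadjusted p was 0.00145, 0.000624 and 0.0232 by limma, and their adjusted p was 0.984.

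The fourth RNA of that host, the C/D member Snord99, stood at 12.59, 12.54 and 12.10 in the controls and at 12.45, 12.36 and 11.91 in the knockouts, a log2 fold change of -0.17 ± 0.19 (SE). The host transcript Snhg12 itself stood at 5.35, 5.34 and 4.82 in the controls and at 5.75, 5.66 and 5.03 in the knockouts. It was higher in the knockout by 0.40, 0.33 and 0.21 in pairs 1, 2 and 3, while each of its 4 snoRNAs was lower in all 3 pairs. Its log2 fold change was 0.31 ± 0.23 (SE), with an unadjusted p of 0.214 by limma, and of 0.0122 with the replicate block (adjusted p 0.984), and leaving out 1 array gave 0.138 to 0.54. Host and snoRNAs shared the drop in array 3, which was -0.52 and -0.68 for Snhg12. The positions of the probesets within the host are unknown here, so which probes could also detect the intron-bearing precursor cannot be said.

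**Figure D4:**
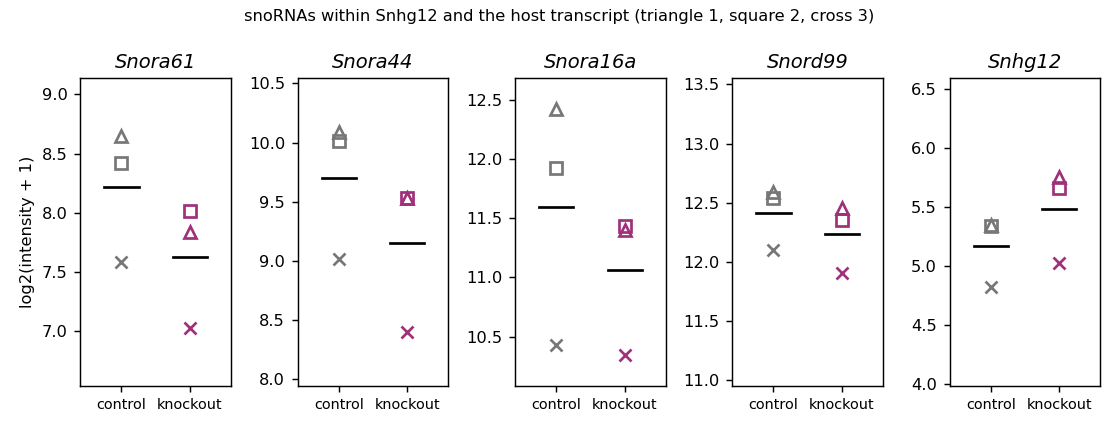
Log2 of intensity plus 1 in each array for the 4 snoRNAs in Snhg12 and, in the last panel, the host transcript, with symbols for array 1 (triangle), 2 (square) and 3 (cross), bars at the group means, and the same span of log2 units in each panel. Symbol by symbol, the knockout lies above the control for the host (5.75 against 5.35 in array 1) and below it for Snora61, Snora44, Snora16a and Snord99.

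Snora74a in the host Snhg4 and Snora47 in the host Zbed3 complete the 5 lower H/ACA members with the smallest p. Snora74a stood at 8.25, 7.97 and 6.38 in the controls and at 7.58, 7.50 and 6.08 in the knockouts, a log2 fold change of -0.48 ± 0.56 (SE), and Snhg4 had 0.05. Snora47 stood at 8.997, 8.71 and 7.95 and at 8.29, 8.36 and 7.74, a log2 fold change of -0.42 ± 0.29 (SE), and Zbed3 had -0.03. In both, arrays 1 and 2 of the knockouts lay below those of the controls. The 4 H/ACA members above 0 were Snora30 in Srcap (0.17), Snora19 in Eif3a (0.12), Snora73b (0.08) and Snora73a (0.04), the last of which share the host Snhg3 (0.18).

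The 3 members in 2410006H16Rik differed less. Snord49a stood at 10.76, 10.64 and 9.36 in the controls and at 10.68, 10.39 and 9.20 in the knockouts, with a log2 fold change of -0.17, Snord65 had -0.11 and Snord49b 0.01. The host stood at 7.96, 8.08 and 6.53 and at 7.93, 8.10 and 6.70, a log2 fold change of 0.05. Its own drop in array 3, -1.49 and -1.31, stood beside -1.34 and -1.34 for Snord49a and -0.96 and -1.08 for Snord49b. Over the 43 tested hosts the median log2 fold change was -0.01, 22 were below 0 and 0 had an unadjusted p under 0.05 by limma. The snoRNA had a more negative difference than its host for 45 of 57 members. Other hosts of members named above were also near 0, with -0.11 for Wdr43, -0.06 for 2410002F23Rik, the host of Snord88a, 0.06 for Gnl3, 0.10 for Eif3a and 0.05 for Srcap.

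**Figure D5:**
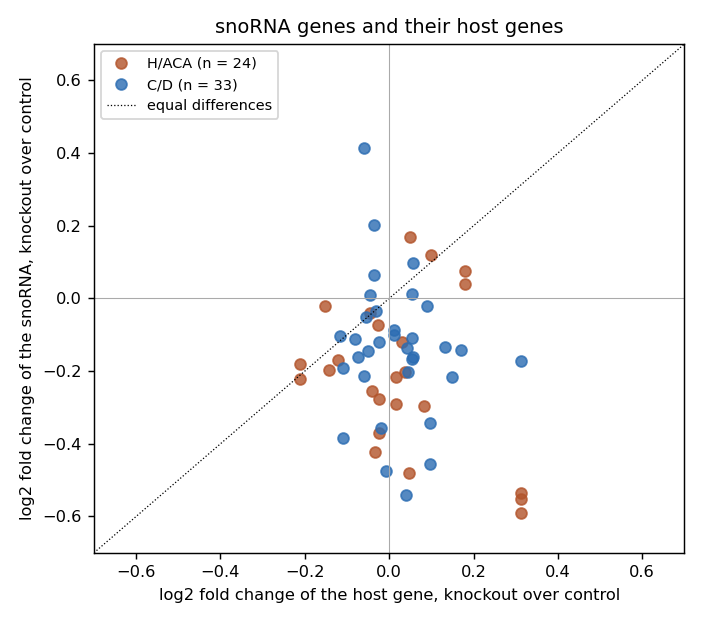
Log2 fold change, knockout over control, of each snoRNA against that of its host gene, for 24 H/ACA and 33 C/D members whose host was tested, with a dotted line where both are equal. Below the line lie 45 of 57 members, some of them with a dim host, and the 3 H/ACA members of Snhg12 lie at the lower right.

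Proteins of the snoRNA particle showed no call by limma, 0 of 7 tested of 9 listed, and 0 had an unadjusted p under 0.05. For the C/D particle, the scaffold proteins Nop56 and Nop58 had log2 fold changes of -0.03 and -0.04, and Snu13, which binds the kink-turn of the RNA, had -0.01. With the mean of probesets, Nop56 had -0.122 and Snu13 0.214, while Nop58 stayed at -0.036. For the H/ACA particle, the pseudouridine synthase Dkc1 had 0.08, Gar1 -0.09, Nhp2 0.16 and Nop10 -0.07. Nop10 was the core gene with the widest gap in array 3, at -0.66 and -0.89, while Dkc1 had 0.05 and 0.02.

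Factors of particle assembly, 14 tested of 16 listed, had 0 calls by limma, 0 at an unadjusted p under 0.05 and a median log2 fold change of 0.04, and the smallest p belonged to Coil, the Cajal body scaffold coilin (0.23, but 0.0269 with the mean of its probesets and 0.119 with a pseudocount of 16), the H/ACA assembly factor Naf1 (0.23) and the helicase Ruvbl2 (0.11). Nucleolar and RNA polymerase I genes, 30 tested of 33, had 0 calls by limma, 0 at an unadjusted p under 0.05 and a median of 0.01, and the smallest p belonged to the polymerase subunits Polr1a (0.24) and Polr1b (0.28) and the processing factor Nop14 (0.11). With the replicate block, Polr1a and Polr1b had an unadjusted p of 0.0393 and 0.0275 by limma. Long noncoding host genes, 21 tested of 26, had 0 calls by limma, 1 at an unadjusted p under 0.05 (1.7% of tested genes) and a median of 0.02. That gene, Snhg15, at 3.77, 3.72 and 4.06 in the controls and 4.12, 4.44 and 4.17 in the knockouts, had a log2 fold change of 0.39 ± 0.14 (SE) with an unadjusted p of 0.0256 by limma. Its groups did not overlap, as for 3.14% of tested genes in the higher direction. Snhg10 had 0.21, with overlapping groups.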

How the data were processed

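Arrays were labelled from 150 ng of total RNA, per the labels. The deposited table holds the authors' linear intensity values of 41340 probesets (array medians 13.4 to 14.6), made with MAS5 per the submitters' processing notes, with scaling not given in the sources used here. Of these, 25335 were listed in the probe annotation, 23521 with 1 gene symbol, 1814 with several and 16005 unnamed.

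Values were taken as log2 of the deposited intensity plus 1 and quantile-normalized, since array medians differed by 0.12. Each gene used its brightest 1-symbol probeset, and 5545 of 22180 genes under the 25th percentile were left out. A fold is on this scale and understates changes of dim genes. Groups were compared with limma 3.58.1 in R 4.3.3 (lmFit and eBayes, two-sided), adjusted over all 16635 tested genes, and the procedure was tested on simulated data. Tables and plots used pandas 2.3.3 and matplotlib 3.10.9 in Python 3.11.15.

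A host is the shortest protein-coding or long noncoding gene enclosing the snoRNA in RefSeq, with strand not considered, and 6 members lay in several genes. Some hosts are not reported here. Promoter and microRNA sequences are RefSeq's. This host rule was set after the data had been seen, as were the comparison of array 3 and the other small RNA classes.

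For same-numbered arrays 1, 2 and 3, correlations of deviations from group means were 0.314, 0.367 and 0.752, all above the limit of 0.1, so numbers were taken to pair arrays. No label states a pairing, and the check bears it out for number 3 alone. Control 1 with knockout 2 (0.402) and control 2 with knockout 1 (0.373) correlated as well, so the check cannot tell which of arrays 1 and 2 belong together.

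The genes named are, per class, the 6 brightest members and the 5 with the smallest p in each direction. The RNAs listed for precursor processing, the particle's core proteins and 3 genes of each other list are named as well. So are hosts with at least 3 members and hosts of members so named. Genes shown for their gap in array 3, among them Snora31, Snora35, Snora78 and Snord88c, with Snord89, Prl and Gh, were chosen after their values were seen. Members and lists were chosen with earlier results of these data known. Alternatives covered normalization, filter, pseudocount, probeset, variance prior, array weights, block and left-out arrays.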

Additional observations from a re-analysis of the deposited data

How the results depend on the processing

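Calls after adjustment by limma were 0 in every setting run. At an unadjusted p under 0.05, H/ACA counts of 0 became 9 with the replicate block and 7 without both arrays numbered 3, and leaving out 1 array gave 0 to 7. The C/D count of 1 became 13 with the replicate block, 13 without both arrays numbered 3 and 5 with array weights, and leaving out 1 array gave 1 to 7. The replicate block, the filters and the variance prior leave a fold change as it is by construction. The cause was not tested for any change named here.

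Of 58 named genes, the sign turned for 7 without both arrays numbered 3 (2410006H16Rik -0.00494, Nop10 0.00413, Snord104 0.0264, Snord110 0.074, Snord85 -0.141, Snu13 0.00974 and Zbed3 0.0462). With arrays centred on their median it turned for 5 (Nop56 0.026, Nop58 0.0233, Snord104 0.00382, Snu13 0.0376 and Zbed3 0.0224), and with array weights for 3 (Snord104 0.057, Snord110 0.0338 and Snu13 0.0246). It turned for Snord49b (-0.0155) and Snu13 (0.00185) in values as deposited, for Snord85 (-0.00104) with a pseudocount of 16 and for Snu13 (0.214) with the mean of probesets. With a pseudocount of 16, dim genes moved towards 0, among them Snhg15 (0.206), Snord88a (0.222), Snord91a (-0.151) and Snord53 (-0.252). Of the 58, 8 were not tested at the 50th percentile.

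Leaving out 1 array turned the sign of these genes, with the lowest and highest log2 fold change. C/D members ranged over Snord104 -0.283 to 0.306, Snord11 -0.231 to 0.479, Snord110 -0.174 to 0.214, Snord118 -0.728 to 0.0465, Snord13 -1.39 to 0.636, Snord19 -0.398 to 0.536, Snord22 -0.294 to 0.0745, Snord49a -0.612 to 0.281, Snord49b -0.307 to 0.375, Snord65 -0.522 to 0.369, Snord70 -0.138 to 0.7, Snord85 -0.347 to 0.418 and Snord87 -0.37 to 0.119. H/ACA members ranged over Snora19 -0.015 to 0.303, Snora21 -0.364 to 0.211, Snora23 -0.893 to 0.117, Snora30 -0.175 to 0.416, Snora33 -0.227 to 0.0343, Snora34 -0.395 to 0.0863, Snora73a -0.696 to 0.779, Snora73b -0.69 to 0.814 and Snora74a -1.06 to 0.00534. Hosts and proteins ranged over 2410002F23Rik -0.145 to 0.00716, 2410006H16Rik -0.443 to 0.493, Gar1 -0.184 to 0.0301, Gnl3 -0.0217 to 0.13, Nop10 -0.291 to 0.226, Nop56 -0.147 to 0.0505, Nop58 -0.141 to 0.0302, Snhg3 -0.0561 to 0.389, Snhg4 -0.0939 to 0.194, Snu13 -0.175 to 0.172, Srcap -0.196 to 0.296, Wdr43 -0.208 to 0.0298 and Zbed3 -0.12 to 0.088.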

Other observations

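Small RNAs outside the Snora and Snord names gave the following knockout values, with no adjusted call by limma. All 8 snoRNA genes under other names had a log2 fold change below 0, with a median of -0.20. DQ267102 stood at 7.03, 7.03 and 6.38 in the controls and at 6.28, 6.41 and 6.02 in the knockouts, a log2 fold change of -0.58 ± 0.20 (SE; limma unadjusted p 0.0224), and its groups overlapped through control 3 and knockout 2. The 5 Cajal body guide RNAs were also below 0, with a median of -0.21, from Scarna2 (-0.09) to Scarna8 (-0.57). Among small nuclear RNA genes, Rnu11, an RNA of the minor spliceosome, had -0.32, Rnu3a -0.18, Rnu12 -0.07 and Rn7sk -0.02. Rpph1, the RNA of ribonuclease P, had -0.19, and its relatives Rprl2 and Rprl1 had -0.16 and 0.07. The Y RNAs Rny1 and Rny3 had 0.01 and 0.06. These genes were chosen after the data had been seen. The median over 180 microRNA genes, which are dim with a median mean level of 4.12, was -0.03.

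Snord89, which lies inside no annotated gene, stood at 9.24, 9.13 and 8.02 in the controls and at 8.79, 8.64 and 7.59 in the knockouts. It was lower by a similar amount in each pair, -0.45, -0.49 and -0.43, with a log2 fold change of -0.46 ± 0.41 (SE) and, with the replicate block, an unadjusted p of 0.00147 by limma. Its drop in array 3 was -1.16 and -1.12.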
